A study of Mus musculus with 6 samples.

Results

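The cytosolic ribosomal proteins, the protein subunits of the ribosomes that translate nuclear mRNAs, were followed in granule cells of the dentate gyrus (DG) of mice in which Bcl11b/Ctip2 was deleted in adulthood, and of control mice. Within this family, which was taken up with earlier results of these data known, members were chosen by gene symbol alone. They are the genes named Rpl or Rps with a number in the platform annotation (with the endings a, l, x or l1), Rplp0, Rplp1, Rplp2 and Rpsa, without ribosomal S6 kinases and pseudogene symbols. This gave 60 of the 19938 genes measured, 38 of the large and 22 of the small subunit. A further 17 symbols of the same form, among them Rpl3, Rpl11, Rpl22l1, Rps16 and Rps23, occur only on probe sets that list several symbols, and 7 more are not named by the annotation used here. These symbols were not analysed here as single genes.

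A cytosolic ribosome joins a small subunit, which binds the mRNA and reads its codons, to a large subunit, which forms the peptide bonds and lets the growing chain leave through an exit tunnel. Their proteins are made in nearly matched amounts, and their mRNAs begin with a terminal oligopyrimidine (TOP) stretch, a C followed by further pyrimidines, through which the kinase mTOR and the RNA-binding protein Larp1 control their translation. In neurons, ribosomes also translate in dendrites and near synapses.

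Mutant animals were of the tet-off line, which combines Bcl11b flox/flox alleles with tetO-Cre and CaMKIIα-tTA. The CaMKIIα promoter drives the transactivator in forebrain neurons, so recombination is not limited to granule cells. Mutant and control mice alike drank doxycycline from embryonic life to 2 months of age and were killed 4 weeks after it was withdrawn, and no source used here gives the genotype of the controls in this line. The granule cell layer was cut out of cresyl violet-stained cryosections by laser capture, and RNA of 3 mutant and 3 control samples was hybridized to 1 Affymetrix array each. Whether an array stands for a separate animal is not stated, and p-values here cover the spread of these samples, which may be technical. All levels are deposited RMA values on the log2 scale. RMA quantile-normalizes the arrays before it combines probes into probe sets, so a difference is relative to the other genes of the array. A difference is the mutant mean minus the control mean, and a gene passed the test where limma's p, adjusted over all 19938 genes, was under 0.05.

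Bcl11b itself was at 8.84 ± 0.18 in mutant and 10.42 ± 0.13 in control arrays (SD, n = 3 each), a log2 difference of -1.58. The granule cell gene Prox1 was at 11.60 in mutant and 11.65 in control arrays (adjusted p = 0.788). Of 12 granule cell markers, 6 were lower and 1 was higher in mutants, so Prox1 matched the labelled cell type in both groups while the list as a whole did not keep its control level. Array medians lay between 6.29 and 6.36. Over all genes, the median log2 difference was -0.0027 and 51.0% of genes had a difference below 0.

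Ribosomal protein transcripts lay below their control level in mutant granule cells in nearly every case, by a small amount. The mutant mean was below the control mean in 57 of 60 members, and the median difference was -0.19. At the median, the level thus decreased by 12.6%. Of the 60 members, 8 fell and 1 rose past the test, against 5.93% of all genes lower and 9.23% higher. The 8 that fell are 13.3% of the members. The groups did not overlap in 25 members that were lower and 2 that were higher in mutants, and for all genes these shares are 14.6% and 17%. Among the 2712 genes with a mean log2 level of at least 10, where most ribosomal proteins lie, 46.8% had a difference below 0, the median was 0.01, and 11.2% fell and 14.1% rose. The members' 13.3% is thus close to the share of these bright genes that fell. A fall in RNA per cell and a smaller share of the cells that hold the RNA cannot be told apart in captured tissue.

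**Figure D1:**
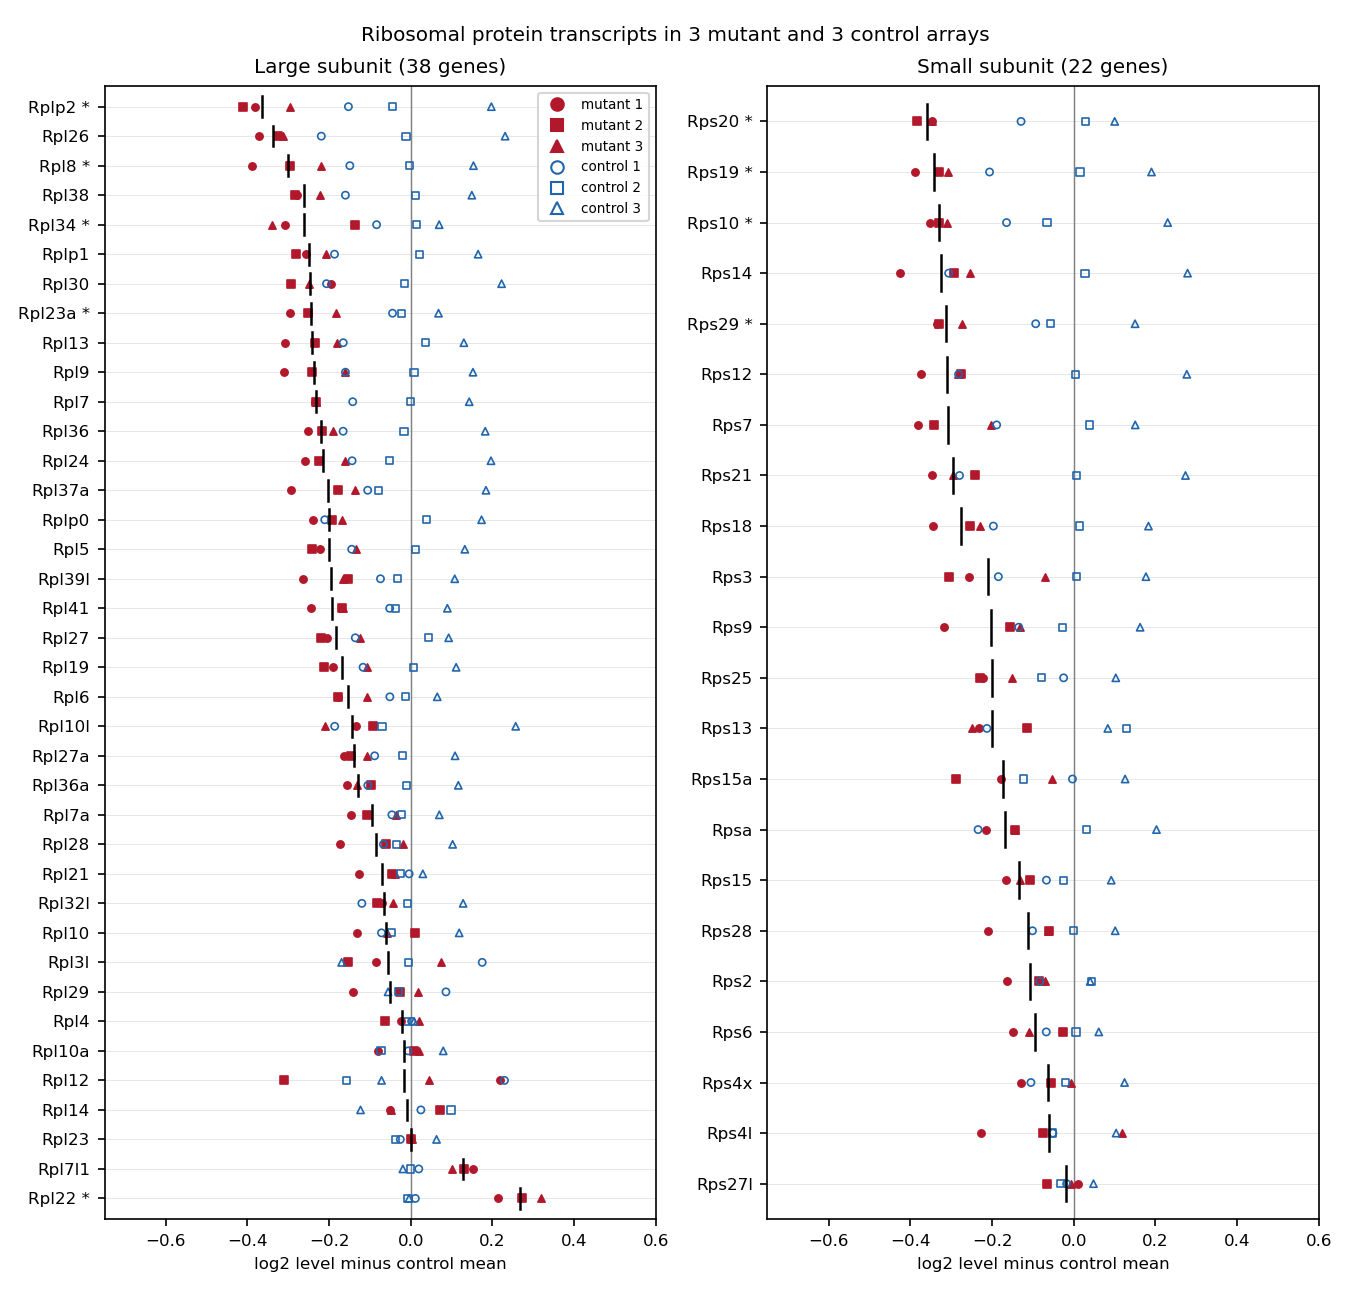
Levels of the 60 ribosomal protein transcripts in each array, as log2 level minus the mean of the 3 control arrays, for the large (left) and small subunit (right). Filled red symbols are mutant and open blue symbols control arrays, black bars are mutant means, and asterisks mark the 9 members past the test. Mutant means lie left of 0 in 57 members, while Rpl22 and Rpl7l1 stand to the right with no overlap.

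In the large subunit, 35 of 38 members were below 0, 4 fell and 1 rose past the test, and the median difference was -0.18. In the small subunit all 22 members were below 0, 4 fell and 0 rose, with a median of -0.20. The signs of the smallest differences, such as those of Rpl12, Rpl23, Rps27l and Rps4l, changed with the array left out. Without adjustment 12 small subunit members had a p under 0.05 in limma, all of them lower, against 5419 of all 19938 genes in either direction. Among the 2712 genes with a mean log2 level of at least 10 it was 1178. By the plain unmoderated test of the study's methods, with adjustment, 0 small subunit members rose, but 0 members of either subunit fell. Its adjusted p was 0.0742 for Rps20, 0.122 for Rps29, 0.205 for Rps19 and 0.220 for Rps10. A difference between the subunits was not tested.

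Among the 22 small subunit members, the largest fall was that of Rps20, which sits in the head of the subunit near the site where tRNAs are decoded. Its log2 level was 11.62, 11.58 and 11.62 in the mutant arrays, against 11.84, 11.99 and 12.07 in the control arrays. All mutant arrays lay below all control arrays, and the difference was -0.36 ± 0.067 (SE; adjusted p = 0.00738). The level decreased by 22.1%.

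Rps19, Rps10 and Rps29 were the 3 other small subunit members that fell past the test. Rps19 was at 11.00, 11.06 and 11.08 in mutant and at 11.18, 11.40 and 11.58 in control arrays (log2 difference -0.34 ± 0.093 SE; adjusted p = 0.0394). Rps10 was at 11.73, 11.75 and 11.77 in mutant and at 11.91, 12.01 and 12.31 in control arrays (-0.33 ± 0.094; adjusted p = 0.0470). Rps29 was at 10.68, 10.68 and 10.74 in mutant and at 10.92, 10.96 and 11.16 in control arrays (-0.31 ± 0.072; adjusted p = 0.0192). In each of these genes the mutant arrays lay close together and below the lowest control, and the control arrays were spread more widely, with control 3 the highest.

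Of the small subunit members that missed the test, Rps7 had a difference of -0.31 (adjusted p = 0.0528), Rps14 of -0.32 (0.142) and Rps12 of -0.31 (0.134). Rps14 was at 11.40, 11.53 and 11.57 in mutant and at 11.52, 11.85 and 12.10 in control arrays, so that control 1 lay inside the mutant range. Rpsa, the laminin receptor homologue at the mRNA exit, gave -0.17 (0.338), and here control 1, at 11.46, was below all 3 mutant arrays. Rps6, the protein that S6 kinases phosphorylate downstream of mTOR, gave -0.09 (0.366), and Rps2, at the mRNA entry, -0.11 (0.303). The smallest differences were those of Rps27l at -0.02 (0.865), Rps4l at -0.06 (0.738) and Rps4x at -0.06 (0.641), and Rps28 gave -0.11 (0.374). Of the 9 measured members of the mRNA channel and decoding head, 2 fell, Rps20 and Rps10, and all 9 had a difference below 0.

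In the large subunit the P stalk, which recruits elongation factors to the ribosome, had its 4 members below 0, and 1 fell. Rplp2 was at 7.33, 7.30 and 7.41 in mutant and at 7.56, 7.66 and 7.91 in control arrays, a difference of -0.36 ± 0.088 (adjusted p = 0.0248) with no overlap. Its partner Rplp1 gave -0.25 (0.0917) with no overlap, and Rplp0, the base of the stalk, gave -0.20 (0.200) with control 1 inside the mutant range. Rpl12, which binds at the stalk base, differed by -0.02 (0.966) at a level of 6.19 ± 0.27 in mutant and 6.21 ± 0.20 in control arrays (SD, n = 3 each), below the median level of all genes, 7.06.

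The other large subunit proteins that fell lie in different parts of the subunit. Rpl8, close to the centre where peptide bonds form, was at 11.33, 11.42 and 11.50 in mutant and at 11.57, 11.71 and 11.87 in control arrays (-0.30 ± 0.083; adjusted p = 0.0416). Rpl23a, at the end of the exit tunnel where the signal recognition particle docks, was at 11.13, 11.18 and 11.25 in mutant and at 11.38, 11.41 and 11.50 in control arrays (-0.24 ± 0.058; adjusted p = 0.0229). Rpl34 was at 8.32, 8.49 and 8.29 in mutant and at 8.54, 8.64 and 8.70 in control arrays (-0.26 ± 0.071; adjusted p = 0.0397). Mutant and control arrays did not overlap in any of them, and in Rpl34 mutant 2, at 8.49, lay closest to the lowest control. Rpl26, which lies at the tunnel exit, gave -0.34 (0.0575), and Rpl38, which in mice is needed for normal patterning of the skeleton, gave -0.26 (0.0575), both without overlap and just short of the test. Rpl5, which with Rpl11 and 5S rRNA can bind the p53 regulator MDM2, gave -0.20 (0.124).

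Rpl22 was the one member that rose. This RNA-binding protein of the large subunit is not required for bulk translation in mice, which need it for the development of αβ T cells. Its level was 9.54, 9.60 and 9.65 in the mutant arrays, against 9.34, 9.32 and 9.32 in the control arrays. The control arrays were almost equal and all mutant arrays lay above them, with a difference of 0.27 ± 0.052 (SE; adjusted p = 0.00936), an increase of 20.4%. Its paralogue Rpl22l1, which Rpl22 is known to repress, lies only on probe sets with several symbols and is not reported. Against control 1 alone the limma adjusted p of Rpl22 was 0.0755.

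A second member, Rpl7l1, was higher in mutants without overlap, at 10.76, 10.74 and 10.71 against 10.63, 10.61 and 10.59 in controls, but its difference of 0.13 did not pass the test (adjusted p = 0.135 in limma, 0.0482 by the methods' unmoderated test). Rpl7l1 is a paralogue of Rpl7, and Rpl7 itself gave -0.23 (0.069). Rpl23, another MDM2-binding protein, differed by less than 0.01 (adjusted p = 0.992), with 11.72 in every mutant array and 11.69, 11.68 and 11.78 in the controls, and it lay below 0 when the arrays were centred on their medians. Rpl10a and Rpl14 differed by -0.02 (0.898) and -0.01 (0.957).

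Of the 7 listed paralogues, copies of a core ribosomal protein gene that often have a narrower tissue range, 6 were measured and 0 passed the test in limma. An unadjusted p under 0.05 was found in 2 of these 6, and in 5419 of all 19938 genes. Of the paralogues, the methods' unmoderated test called Rpl7l1 alone. Besides Rpl7l1 these were Rpl39l and Rpl10l, known from testis, with -0.20 (0.0847) and -0.15 (0.440), Rpl3l, known from heart and skeletal muscle, with -0.05 (0.785), and the small subunit copies Rps27l, a p53 target, and Rps4l, a transcribed pseudogene in RefSeq. Rpl39l, Rpl10l and Rpl3l were at mean levels between 4.67 and 5.36 in either group, under the median level of all genes, where a probe set may carry little signal of its own.

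**Figure D2:**
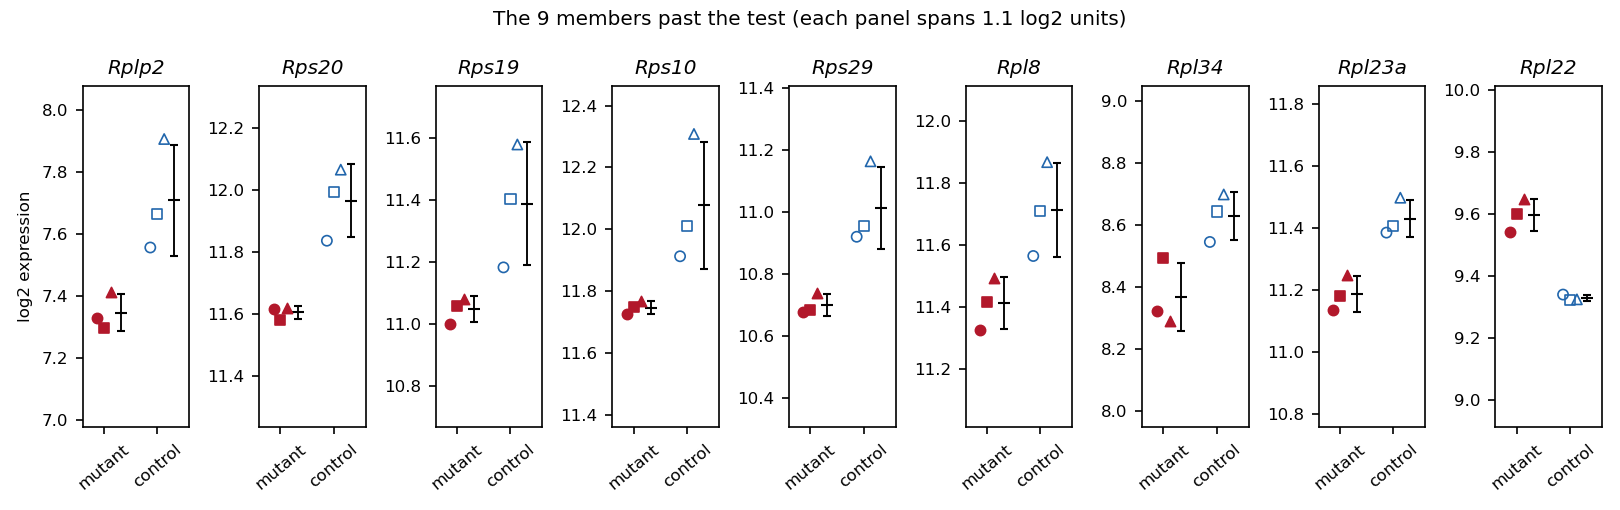
Log2 expression of the 9 members past the test in each array, with mutant arrays left and control arrays right in each panel. Symbols are arrays (circle 1, square 2, triangle 3), the black lines mean ± SD (n = 3), and each panel spans the same range of 1.1 log2 units. Rplp2 to Rpl23a are lower in every mutant than in any control array, and Rpl22 is higher.

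The control arrays differed among themselves more than the mutant arrays did. The SD between control arrays was above that between mutant arrays in 52 of 60 members, with medians of 0.0547 in mutants and 0.124 in controls. Over all genes it was so in 12597 of 19938, with medians of 0.0613 in mutants and 0.0815 in controls. A wider spread of the controls was thus not particular to the members. Control 3 was the highest of all 6 arrays in 50 members, which was so in 4094 of all 19938 genes. Control 1 was the lowest control in 46 members, lay within the mutant range in 26 and was above all mutants in 29. For all 19938 genes these counts are 7447, 6940 and 6284. Among the mutants, mutant 1 was the lowest of all arrays in 35 members, against 3060 of all 19938 genes. As a median over the 60 members, with each gene set to its mean over the 6 arrays, the log2 level was -0.13, -0.09 and -0.05 in mutants 1 to 3 and -0.03, 0.08 and 0.20 in controls 1 to 3. The order of the arrays was thus shared by most members, so the 57 members below 0 are not 57 separate observations.

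The number of members past the test depended on single arrays. Without control 1, 32 members fell and 1 rose, with a median of -0.24, while 8.68% of all genes fell. Without control 3, 3 members fell and 1 rose, with a median of -0.12, against 5.16% of all genes that fell. Without control 2, 2 members fell (3.52% of all genes). Without mutant 1, 2 or 3 it was 1, 2 and 2 members, against 3.4%, 3.43% and 3.73% of all genes. The share of members that fell was thus near or under that of all genes in these fits, and above it without control 1. Set against control 1 alone, 50 of 60 members were still below 0 with a median of -0.05. In that fit 0 members passed in either direction in limma and 8 had an unadjusted p under 0.05, while 4.8% of all genes fell. Against control 2 alone 13 members fell with a median of -0.16 (5.28% of all genes), and against control 3 alone 37 fell with a median of -0.30 (6.91%). Rps20 and Rpl22 passed the test whichever 1 array was left out.

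**Figure D3:**
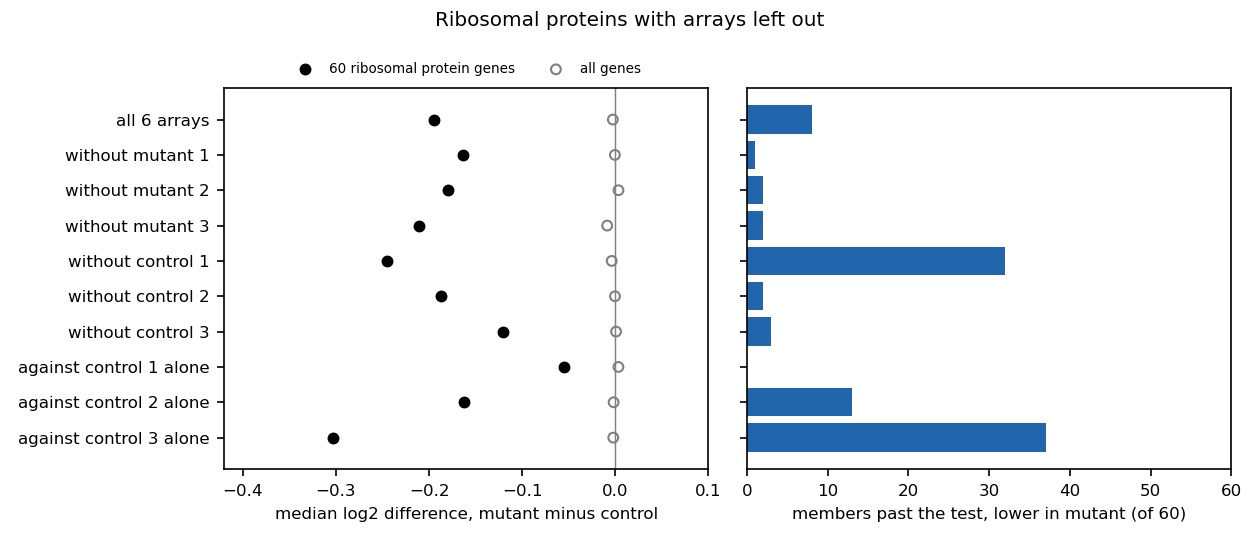
Median log2 difference of mutant minus control arrays (left) over the 60 ribosomal protein genes (filled) and all genes (open), and the number of the 60 genes past the test and lower in mutants (right), with all 6 arrays, with 1 array left out and against 1 control array alone. The median ranges from -0.05 against control 1 alone to -0.30 against control 3 alone, and the number from 0 to 37.

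Sample titles hold a number whose meaning no source gives. Sorted by it, control 1 comes before the 3 mutants and controls 2 and 3 come after them. By mean level, markers of microglia and of astrocytes, cells that can lie in a captured granule cell layer, also had control 1 as the lowest and control 3 as the highest control. This order did not hold for each single marker, and none of the other marker lists had it. Granule cell markers were at 10.75, 10.71 and 10.64 in controls 1 to 3, the reverse order. Control 1 was also the lowest and control 3 the highest control in the medians of mitochondrial ribosomal proteins and of elongation factors and other TOP mRNAs. It was not so in those of initiation factors, ribosome biogenesis, mTOR signalling and proteasome genes. All 9 measured microglia markers were below 0 in mutants, 1 of them, Tmem119, fell (-0.32; adjusted p = 0.00952), and their median difference was -0.26. Their mean level was 6.79 to 6.93 in mutant and 6.85 to 7.27 in control arrays, with control 3 the highest, and none of them was above 8.47 in any array. Oligodendrocyte markers were at 7.57 to 7.76 in mutant and 7.92 to 8.07 in control arrays, with 2 of 9 lower. Of astrocyte markers 2 of 10 were higher, at 9.04 to 9.26 in mutant and 8.83 to 9.13 in control arrays, and of endothelium and pericyte markers likewise 2 of 10. Markers of dividing and immature neurons were at 7.42 to 7.605 in mutant and 7.18 to 7.40 in control arrays, with 3 of 8 higher, among them Dcx by 1.07. Pyramidal and mossy cell markers were at 7.92 to 7.945 in mutant and 7.74 to 7.81 in control arrays. Of these 9 markers 3 were higher and 1, Fibcd1, was lower (-0.94; limma adjusted p = 3.7e-04). Their median difference was -0.03, with 5 below 0 and 4 above, and the largest rise was that of Bok, by 1.90. In this list and that of dividing and immature neurons, the mean level of every mutant array was above that of every control array. Such means can follow single genes with a large change, here Bok and Dcx. By medians over the genes, each set to its mean over the 6 arrays, this held for pyramidal and mossy cell markers. It did not for dividing and immature neurons, where control 1 (0.05) was above mutants 2 and 3 (-0.03 and -0.04). Over all genes 5.93% were lower and 9.23% higher past the test. Of inhibitory neuron markers 2 of 10 were lower, and the ranges of the groups overlapped. The part of these cells, of the sample number and of RNA quality in the ribosomal protein result was not tested.

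Many members had further probe sets. In all 216 probe sets carry a member's symbol alone, and 39 members have more than 1, with up to 14 for Rps12. Those not used all had a difference of the same sign as the probe set used, with a median of -0.21, and 27 fell past the test. These falls were concentrated in few members. With the probe sets used counted in, 18 fell in the large subunit, of 7 members and 12 of them of Rpl23a. In the small subunit it was 16, of 6 members and 5 of them of Rps25. Several probe sets of Rps12 had the same difference. The share of all probe sets that fell is not given, so the 27 have no background to be set against. Ribosomal protein genes have many processed pseudogenes, so probe sets of a member can share sequence, and these are not independent measurements.

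Sequence around the start of transcription was read from RefSeq (GRCm38.p6) for 48 members with 57 annotated starts, among them 5 of the 9 members past the test. One window is shown for each of these 5 and both for Rpl22, to set the TOP stretch of Rplp2 and Rps10 beside annotated starts that do not begin with one. Each gives 50 bases, 30 before the annotated start and 20 from it on, in lower case, and capitals mark a C at the start followed by at least 4 pyrimidines, with the whole unbroken run.
Rplp2, chr7:141447621-141447670 (+): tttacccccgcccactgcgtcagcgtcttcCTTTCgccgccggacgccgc
Rps10, chr17:27635225-27635274 (-): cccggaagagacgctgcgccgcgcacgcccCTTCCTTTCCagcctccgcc
Rps19, chr7:24884562-24884611 (+): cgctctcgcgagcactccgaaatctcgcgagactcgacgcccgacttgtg
Rpl34, chr3:130730318-130730367 (-): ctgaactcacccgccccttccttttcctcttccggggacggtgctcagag
Rpl22, chr4:152324406-152324455 (+): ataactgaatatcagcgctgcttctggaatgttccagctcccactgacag
Rpl22, second start, chr4:152325696-152325745 (+): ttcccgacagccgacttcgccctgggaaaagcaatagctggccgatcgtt
The run is 5 bases in Rplp2 and 10 in Rps10, both of which fell, while neither annotated start of Rpl22, which rose, begins with one, nor do those of Rps19 and Rpl34, which fell. In the Rpl34 window an unbroken stretch of pyrimidines does run across the annotated start, but the base at the start is a T. Rps20, Rps29, Rpl8 and Rpl23a are named only. An annotated start need not be the one used in granule cells, and a window without the run says only that these letters are not at that position.

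Such a run stood at 10 of 57 member starts (17.5%), against 2.51% of all 32851 starts in the table. In windows from 250 bases before to 50 after the start, CCGGAAG or its complement CTTCCGG, the core of sites for ETS factors such as GABP, was found in 33.3% of member windows and 8.86% of all. TGGGC or GCCCA, the letters of a putative Bcl11b site, was found in 66.7% of member windows and 56.9% of all. AAGATGG or CCATCTT, letters of YY1 sites, was found in 8.77% and 6.34%, and TATAAA on the coding strand in 8.77% and 8.32%. The Rplp2 window held both TGGGC and CCGGAAG, the Rps10 window and the window shown for Rpl34 CCGGAAG alone, and both Rpl22 windows TGGGC, the first with AAGATGG. All 3 windows of Rps19 held TGGGC. Matches are descriptions and were not tested.

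Other ribosomal and translation genes were set beside the members. Rps3a1, a small subunit protein whose symbol falls outside the rule, was at 9.29, 9.40 and 9.63 in mutant and at 9.80, 9.86 and 10.12 in control arrays (-0.48; adjusted p = 0.0152), and Fau, which encodes Rps30 fused to a ubiquitin-like protein, gave -0.21 (0.0878). Of 15 measured elongation factors and other genes with TOP mRNAs, 2 fell (13.3%, all genes 5.93%) and 1 rose (6.67%, all genes 9.23%). Their median was -0.11. The genes that fell were Tpt1, which encodes the translationally controlled tumour protein and is a classical TOP mRNA, with -0.44 (9.16e-04), and Gas5, a non-coding TOP transcript that hosts small nucleolar RNAs, with -0.37 (0.0202). Nap1l1, a histone chaperone gene, rose by 0.31 (0.0056).

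Of 74 mitochondrial ribosomal proteins, which build a separate ribosome, 8 fell and 1 rose, 60 were below 0 and the median was -0.09. Mrpl18 fell by 0.39 (0.00174), at 9.08, 9.16 and 9.17 in mutant and 9.48, 9.55 and 9.53 in control arrays. Initiation factors had a median of -0.04, with 1 of 26 lower (Eif3l, -0.19; 0.0498) and 2 higher (Eif4h, 0.23; 0.0294 and Eif2b3, 0.20; 0.0366). The shares of initiation factors, 3.85% lower and 7.69% higher, were under those of all genes. So were those of genes of ribosome biogenesis and rRNA transcription (4.44% and 6.67%). These 45 genes had a median of 0.04, with 2 lower and 3 higher. Among them Bop1, needed for processing of large subunit rRNA, fell by 0.40 (0.00123), and Fbl, the methyltransferase of small nucleolar particles, rose by 0.34 (0.00681).

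Of 24 genes of mTOR signalling and TOP regulation, 3 rose (12.5%, all genes 9.23%) and 2 fell (8.33%, all genes 5.93%). Both shares are near those of all genes. Mycn was at 9.31, 9.55 and 9.48 in mutant and at 8.59, 8.36 and 8.68 in control arrays (0.90; adjusted p = 3.67e-04), and Myc was at 6.94, 6.91 and 6.995 in mutant and at 7.34, 7.23 and 7.30 in control arrays (-0.34; adjusted p = 0.00378). Both encode transcription factors known to drive genes of ribosome production, and in these arrays they moved in opposite directions without overlap. Larp1, which binds the cap and TOP stretch of ribosomal protein mRNAs, rose by 0.31 (0.0255), and Eif4ebp2, an mTOR-controlled inhibitor of the cap-binding factor eIF4E, rose by 0.34 (0.0276).

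**Figure D4:**
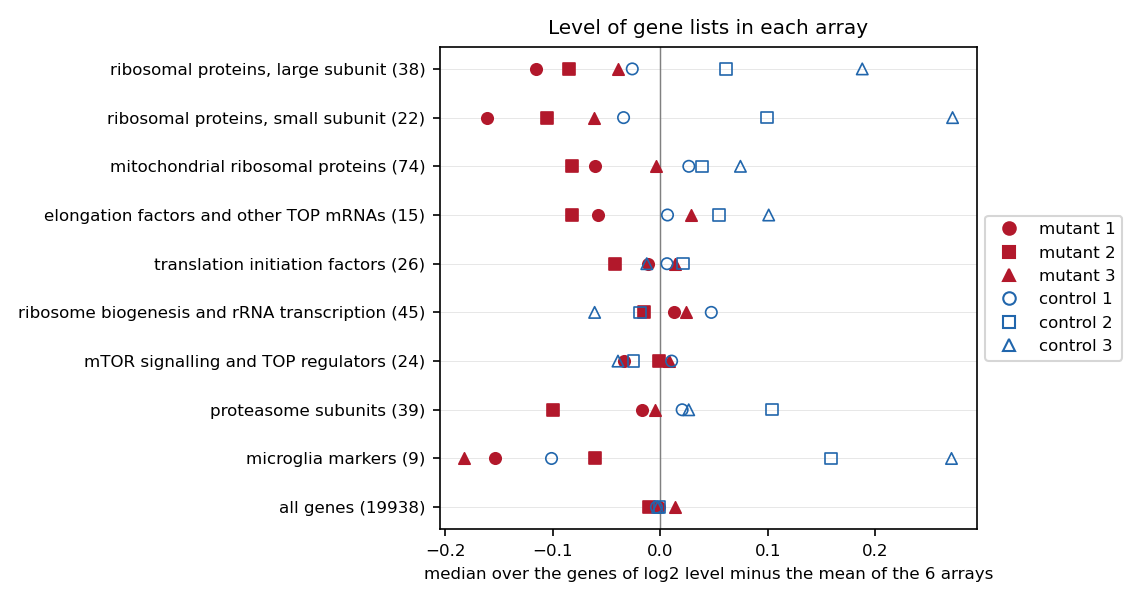
Level of ribosomal proteins and of related gene lists in each array, as the median over a list's genes of the log2 level minus the gene's mean over the 6 arrays, with the number of genes in brackets. Filled red symbols are mutant and open blue symbols control arrays. Small subunit proteins range from -0.16 in mutant 1 to 0.27 in control 3, while all genes lie close to 0.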

How the data were processed

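Values of 35556 probe sets in 6 arrays were analysed. The authors made the deposited log2 expression values with RMA in Affymetrix Expression Console, as the submitters' processing notes name them, and no source used here gives their versions. RMA corrects background, quantile-normalizes the arrays and summarizes the probes. Each column belonged to 1 array. Of the probe sets, 21789 were annotated with exactly 1 symbol and 1621 with several. The probe set with the highest mean was kept per gene, and no filter on level was applied. The comparison of mutant with control arrays was fitted in limma 3.58.1 (lmFit, eBayes, no covariates; R 4.3.3), with Benjamini-Hochberg adjustment over 19938 genes, two-sided. The study names BRB-ArrayTools for the arrays without a model, and an unpaired two-tailed Student test in general, which was run as an alternative. Named were Bcl11b, of each subunit the 6 members with the largest fall and the 6 with the largest rise past the test (or among all members where fewer passed), the paralogues, P stalk and MDM2-binding members, Rpsa, Rps6 and Rps19, up to 4 genes of each other list, and members closest to the threshold. Rpl7, Rpl11, Rpl22l1 and other members named in passing fall outside this rule, as does Prox1, which checks the cell type. Members and lists were chosen with earlier results of these data known. The fit was checked on simulated data with independent noise for each gene. Such data hold no array order shared between genes, so the check does not bear on the counts of members. Precision is limited by having 3 arrays a group, and the values carry no measure of detection.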

Additional observations from a re-analysis of the deposited data

How the results depend on the processing

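With all arrays 4 large and 4 small subunit members fell and 1 large subunit member rose. The large subunit count of members that fell was 19 with array weights, 13 with arrays centred on their medians, 7 with a mean-variance trend and 0 at an adjusted p under 0.01. The small subunit count was 11 with array weights, 7 with centred arrays and 1 at that threshold. With every probe set tested on its own, 18 of 132 large subunit probe sets fell, of 7 members and 12 of them of Rpl23a, and 16 of 84 small subunit probe sets, of 6 members, so these do not count members. With the methods' unpaired Student test and adjustment, 0 fell in either subunit and 2 rose in the large one, Rpl22 and Rpl7l1. With the replicate number as a block, 8 large and 7 small subunit members fell. The share of all genes that fell is not given for these alternatives, so a larger count need not mean a larger change of the members. With array weights the medians were -0.17 (large) and -0.21 (small), near those of the main fit. Same-numbered arrays had correlations of 0.16, -0.03 and 0.12 between their deviations from the group means. The best match of an array was its own number in 4 of 6. These values do not decide whether the arrays are paired. No source used here states that the numbers pair arrays, so they were not taken as pairs. With 1 array left out, the counts ranged from 0 to 19 (large) and 1 to 13 (small), and the medians from -0.23 to -0.12 (main -0.18) and from -0.29 to -0.14 (main -0.20). Alternatives chosen after seeing the data set the mutants against 1 control array, whose spread is assumed to be that of the mutants. Against control 1 alone 0 large and 0 small subunit members fell and 0 rose, with medians of -0.058 and -0.028. Against control 2 alone 9 small subunit members fell. Against control 3 alone 23 large and 14 small subunit members fell, with medians of -0.28 and -0.37. Of the values of named members under the alternatives other than these, 41 fell short of the test, 31 newly passed, 370 kept their sign and side of the test and 19 changed sign. Over all alternatives 11 members, none past the test, changed sign in 30 settings, 0 of these past the test in limma. With array weights the differences were 0.027 for Rpl10a, 0.12 for Rpl12 and 0.0022 for Rps27l, and Rpl23 was at -0.0049 with quantile normalization run again and at -0.047 with centred arrays. With 1 array left out Rpl10a ranged from -0.054 to 0.022, Rpl12 from -0.13 to 0.13, Rpl14 from -0.071 to 0.039, Rpl23 from -0.017 to 0.033, Rpl3l from -0.14 to 0.033, Rps27l from -0.036 to 0.0041 and Rps4l from -0.15 to 0.021. Against control 1 alone Rpl10l was at 0.041, Rplp0 at 0.010, Rps4x at 0.041 and Rpsa at 0.067. Against control 2 alone Rpl10a was at 0.055, Rpl12 at 0.14 and Rps27l at 0.011, and against control 3 alone Rpl12 was at 0.056, Rpl14 at 0.11, Rpl3l at 0.11 and Rpl23 at -0.062.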

Other observations

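Probe sets that list several symbols, at least 1 of them of a cytosolic ribosomal protein, were left out of all comparisons above. There were 235 of them, 204 were lower in mutants by the mean, and their median log2 difference was -0.15. They carry no single gene name and share sequence with the members, so they add no independent measurement.

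Of 39 proteasome subunit genes, members of another large complex that cells make in matched amounts, 6 fell and 1 rose, and the median log2 difference was -0.06. The 6 that fell are 15.4% of these genes, a share above the 13.3% of the ribosomal protein genes, against 5.93% of all genes. Psmc3, a subunit of the base of the regulatory particle, was at 9.86, 9.67 and 9.80 in mutant and at 9.99, 10.22 and 10.12 in control arrays (-0.34; limma adjusted p = 0.0177). Psmb10, an inducible catalytic subunit of the immunoproteasome, was the one that rose, at 9.02, 8.93 and 9.07 in mutant and at 8.70, 8.67 and 8.67 in control arrays (0.32; adjusted p = 0.00470). Control 3 was the highest array for 7 of the 39 genes, against 50 of the 60 ribosomal protein genes, and control 2 for 18.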
